A study of Mus musculus with 12 samples.

Results

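miR-451a, miR-144-3p and miR-144-5p are the mature products of 2 neighbouring miRNA genes that are known for their very high levels in red blood cells. The 3 rows mmu-miR-451a, mmu-miR-144-3p and mmu-miR-144-5p were taken by name from the 932 rows of a small RNA table made from cardiac mitochondria, and all 3 were present in it. The table holds 6 libraries from db/db mice, which carry a leptin receptor mutation and become obese and diabetic, and 6 libraries from wild-type (WT) mice. The labels give heart as the tissue and a mitochondrial fraction for every library. They name no age, sex, strain background or batch, and do not say that each number is a separate animal. If the numbers are technical repeats, the p-values reflect technical spread alone. Other fractions were not analysed here, so the amount of whole cells in the preparations was not measured.

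In erythroid cells Mir144 and Mir451a are transcribed together as one primary transcript, under the erythroid factor GATA1. miR-144 goes through the usual pathway in which Dicer cuts the hairpin. miR-451a does not: its hairpin is too short for Dicer, and Argonaute 2 (Ago2) slices it, after which the end is trimmed. miR-451a becomes one of the most abundant miRNAs of mature red cells, where it protects against oxidant stress partly through Ywhaz, and it is widely used as a sign of red cells or of haemolysis in other samples. In cardiomyocytes it has also been described as a regulator of Cab39, a partner of the kinase LKB1. Ago2 is the protein named in the title of the study.

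Each mature sequence is shown with the seed, bases 2 to 8 from the 5′ end, in capitals. The relative miR-101a-3p is added because it starts like miR-144-3p.
miR-451a: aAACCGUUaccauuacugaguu
miR-144-3p: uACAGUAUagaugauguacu
miR-144-5p: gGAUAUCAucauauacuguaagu
miR-101a-3p: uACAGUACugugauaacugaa
No other row had the seed of any of the 3 members among the 635 of 730 named rows with a RefSeq sequence (GRCm38.p6). miR-101a-3p matched miR-144-3p over the first 7 bases, and the first difference was U8C, counted from the 5′ end with the base of miR-144-3p first. The 3 members thus have unlike seeds, although they share a transcript.

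The hairpins show how the mature forms sit in their precursors, with the mature bases in capitals.
Mir144: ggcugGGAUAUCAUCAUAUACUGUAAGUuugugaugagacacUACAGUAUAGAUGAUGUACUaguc
Mir451a: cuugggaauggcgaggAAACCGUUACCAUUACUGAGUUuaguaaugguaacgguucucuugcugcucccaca
Both lie on the plus strand of chromosome 11, 99 bases apart, in the RefSeq annotation of GRCm38.p6. In the structure predicted by RNAfold, 17 of the 22 bases of miR-451a paired on the 5′ side of the stem and the next 4 filled the loop. The arms of miR-144 lay on opposite sides of their stem, with 20 of 23 bases of miR-144-5p and 19 of 20 bases of miR-144-3p paired. Mir451b lies on the opposite strand of the same 72 bases, and miR-451b was not a row of the table. The nearest protein-coding gene, Eral1, has its 3′ end 134 bases beyond Mir451a on the opposite strand; it encodes a GTPase that assembles the small subunit of the mitochondrial ribosome.

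Values are in RPM, the reads of a row scaled so that all rows of a library sum to 1000000. Recovered totals were 412749 to 1382046 reads in db/db libraries and 551591 to 962697 reads in WT libraries. A value of 0 allows up to 3 reads, a one-sided 95% limit. That is 2.17 to 7.27 RPM in db/db and 3.12 to 5.44 RPM in WT libraries. The Poisson intervals below are two-sided, so their upper limit for 0 reads is higher (5.07 RPM for miR-144-5p in db/db library 1). These limits and the intervals below cover counting error only. The cardiac muscle miRNA miR-133a-3p was first in abundance in every library. db/db library 6 had the fewest reads of all, and WT library 4 the fewest of its genotype.

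miR-451a was the only member measured with many reads. It lay at 290.3 RPM in the lowest, 1641 in the median and 3721 RPM in the highest db/db library, and at 850.1, 1131 and 1685 RPM in the lowest, median and highest WT library. The groups overlapped: 3 db/db libraries (2, 3 and 6) lay above the highest WT library, 2 lay within the WT range and db/db library 1 lay below the lowest WT library. The mean was 1822 ± 1171 RPM in db/db and 1234 ± 379 RPM in WT libraries (SD, n = 6 each). In order of abundance it stood between place 40 (db/db library 6) and place 102 (db/db library 1) among db/db libraries, and between 49 and 70 among WT libraries. In such bulk samples a change in the number of red cells and a change in miR-451a per cell cannot be told apart.

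The difference between the genotypes was within the spread of the libraries. limma, fitted to log2(RPM + 1) over all 646 rows averaging 1 RPM or more, gave miR-451a a log2 fold change of 0.26 ± 0.27 (SE; 95% interval -0.28 to 0.81; adjusted p = 0.717). An exact permutation test of the difference in mean log2(RPM + 1) gave p = 0.665 (two-sided, n = 6 each). In that fit 1 of the 646 rows, 0.155%, was called at an adjusted p under 0.05, and none of the 3 members was. That row was miR-22-3p, with -0.56 ± 0.13 (SE; limma adjusted p = 0.0466). 58 rows in all, 8.98%, had an unadjusted p under 0.05, and again no member did. The standard error of limma borrows from rows of like abundance. Without that trend it was 0.53 for miR-451a, with the same fold change.

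Single libraries moved the difference. Each limma fit in this paragraph kept the abundance trend, so its SE also borrows from rows of like abundance. Without db/db library 1 the log2 fold change of miR-451a was 0.72 ± 0.19 (SE; limma adjusted p = 0.101), and without db/db library 6 it was -0.013 ± 0.25 (limma adjusted p = 0.996). On recovered reads edgeR gave 0.56 with all libraries (adjusted p = 0.135; 3 of 646 rows called, 0.464%) and 0.73 without db/db library 1 (adjusted p = 0.0168). DESeq2 gave 0.60 with all libraries (adjusted p = 0.487; 13 of the 145 rows with an adjusted p called, 8.97%). edgeR put 159 rows, 24.6%, at an unadjusted p below 0.05, and miR-451a was among them (edgeR unadjusted p = 0.00275). In the edgeR fit without db/db library 1, chosen after the values were seen, miR-451a was the 1 row called of 643, 0.156%. A factor that separates libraries 1 to 3 from 4 to 6, a grouping that the labels do not name, gave 0.60 in edgeR (adjusted p = 0.00358; 9 rows called, 1.39%) and 0.26 in limma (adjusted p = 0.697; 10 rows called, 1.55%). In WT the libraries numbered 1 to 3 lay at 850.1 to 973 RPM and those numbered 4 to 6 at 1288 to 1685 RPM. In db/db the same 2 sets overlapped, at 290.3 to 2440 RPM and 1197 to 3721 RPM. What the difference in WT comes from was not tested.

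**Figure D1:**
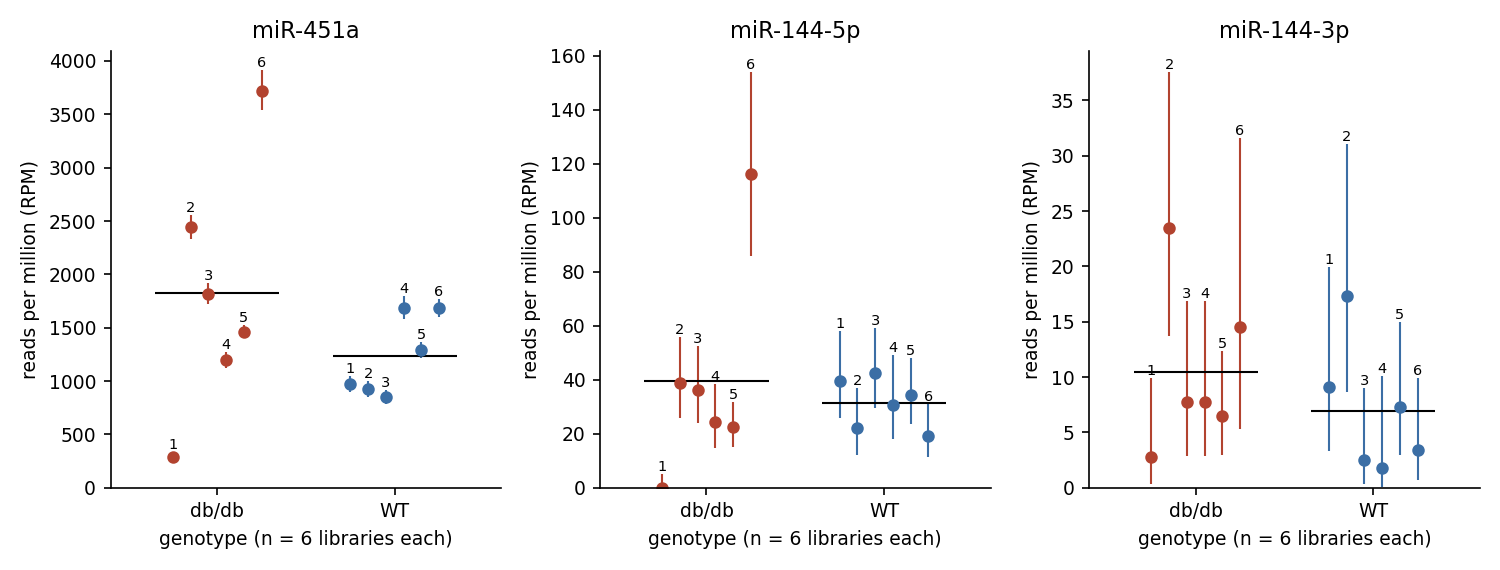
RPM of miR-451a, miR-144-5p and miR-144-3p in 6 db/db (red) and 6 WT (blue) libraries, each point 1 library with its number, bars the exact 95% Poisson interval of its reads, lines the group means. miR-451a runs from 290.3 to 3721 RPM in db/db and from 850.1 to 1685 RPM in WT libraries, and db/db libraries 1 and 6 lie at the ends for miR-451a and miR-144-5p.

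**Figure D2:**
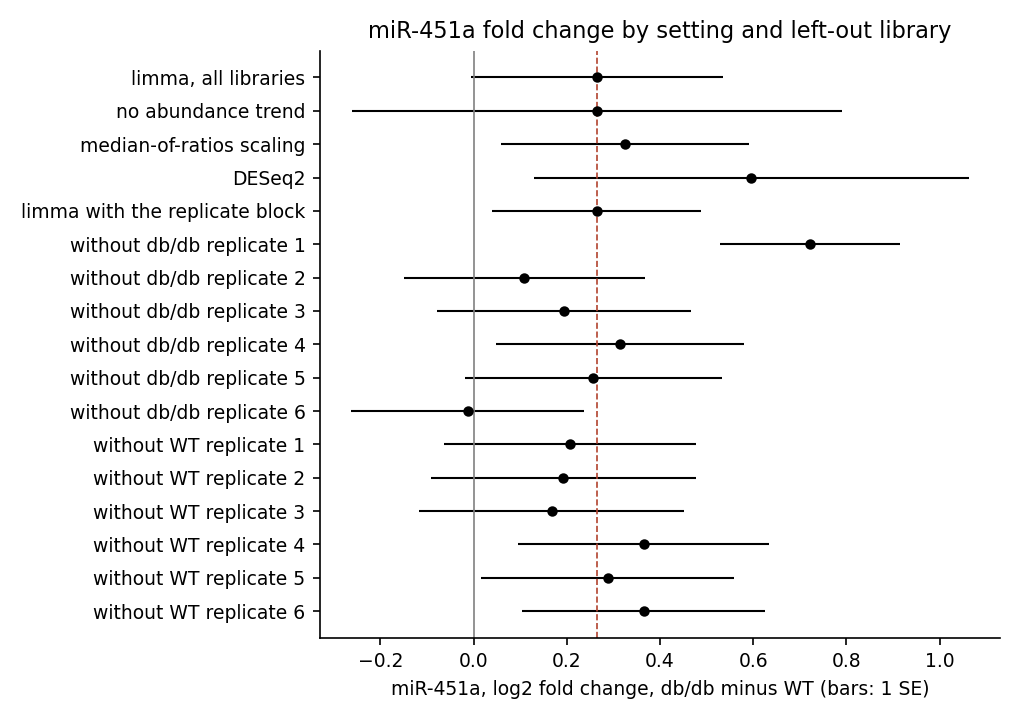
log2 fold change of miR-451a, db/db minus WT, with bars of 1 SE, under 5 fits of all libraries and under 12 limma fits that each leave out 1 library (the red dashed line is limma with all libraries, 0.26). The value reaches 0.72 without db/db library 1 and -0.013 without db/db library 6. The left-out fits keep the abundance trend, so their SE borrows from rows of like abundance. The edgeR fits have no SE and are not shown, among them those that called miR-451a (0.60 and 0.73).

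The spread of miR-451a among db/db libraries stood out from that of other abundant miRNAs. Its standard deviation on the log2(RPM + 1) scale was 1.26 over 6 db/db and 0.44 over 6 WT libraries. Among the 147 rows averaging 100 RPM or more this was the largest in db/db libraries, where the median row had 0.30, and the place was 29 in WT libraries, where the median row also had 0.30. Without db/db library 1 it was 0.64 over 5 libraries, in place 8 of 147, and without db/db library 6 it was 1.19 over 5 libraries, still the largest. These ranks are a description, and the difference in spread between the genotypes was not tested.

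The 2 extreme libraries lay far outside counting error. In db/db library 1 miR-451a rested on 211 reads (290.3 RPM, exact 95% Poisson interval 252 to 332 RPM), and in db/db library 6 on 1536 reads (3721 RPM, 3538 to 3912 RPM). Relative to the median of the other 11 libraries, miR-451a was -2.33 on the log2 scale in db/db library 1, the lowest place of the 147 abundant rows there. In db/db library 6 it was 1.53, the highest place of the 147. Few abundant rows departed by more than 1 log2 unit. In db/db library 1, 3 of the 147 rows lay that far below the median of the others and 0 above, miR-451a included. In db/db library 6 it was 6 below and 3 above, and in WT library 5 it was 7 below and 3 above. The depth of db/db library 1, 726885 reads, was within the range of the other libraries, while db/db library 6 was the shallowest. The part of depth in the value of db/db library 6 was not tested.

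**Figure D3:**
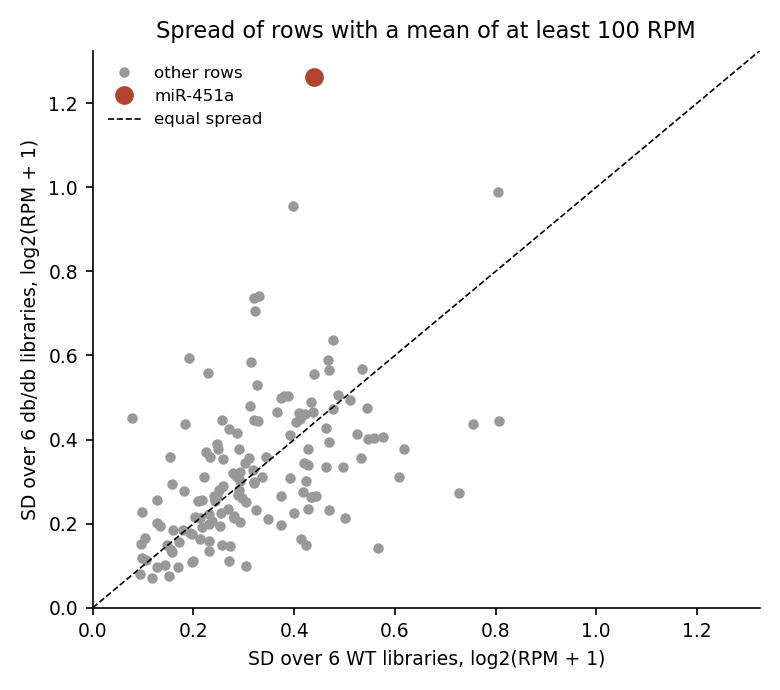
Standard deviation of log2(RPM + 1) over 6 db/db libraries (vertical axis) against that over 6 WT libraries (horizontal axis) for the 147 rows averaging 100 RPM or more, each point 1 row, with a dashed line of equal spread. miR-451a (red) has the largest spread in db/db, 1.26, against 0.44 in WT libraries.

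miR-144-5p was the more abundant arm of miR-144, and it was still low. It lay at 0, 30.4 and 116 RPM in the lowest, median and highest db/db library, and at 19.3, 32.5 and 42.4 RPM in the lowest, median and highest WT library. The lowest and highest db/db libraries were again numbers 1 and 6, and the other 4 lay within the WT range. Over all reads of a genotype it had 154 reads in db/db and 141 in WT libraries, or 32.1 RPM (exact 95% Poisson interval 27.3 to 37.6) in db/db and 31.4 RPM (26.5 to 37.1) in WT.

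The direction of miR-144-5p changed with the fit and on leaving out db/db library 1. Leaving out db/db library 6 changed the size of the difference but not its sign. limma gave a log2 fold change of -0.53 ± 0.63 (SE; 95% interval -1.80 to 0.74; adjusted p = 0.733), while the mean was higher in db/db, 39.7 ± 40.0 RPM, than in WT libraries, 31.4 ± 9.29 RPM (SD, n = 6 each; exact permutation test on RPM, two-sided, p = 0.801). Without db/db library 1 limma gave 0.36 ± 0.50 (adjusted p = 0.799). Without db/db libraries 1 and 6 it gave -0.03 ± 0.54 (adjusted p = 0.990), and without db/db library 6 alone -1.01 ± 0.65 (adjusted p = 0.746). On the recovered reads edgeR and DESeq2 gave 0.30 and 0.35 with all libraries, and edgeR with the sample number as a replicate block gave -0.15.

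miR-144-3p, which in human erythroid cells lowers the antioxidant factor NRF2, was near the limit of counting. It lay at 2.75, 7.76 and 23.5 RPM in the lowest, median and highest db/db library, and at 1.81, 5.34 and 17.4 RPM in the lowest, median and highest WT library. These values rest on 2 to 17 reads in db/db and 1 to 11 reads in WT libraries, and the groups overlapped, with only db/db library 2 outside the WT range. Of all reads it had 46 in db/db and 30 in WT libraries, or 9.60 RPM (exact 95% Poisson interval 7.03 to 12.8) in db/db and 6.69 RPM (4.51 to 9.55) in WT. limma gave a log2 fold change of 0.60 ± 0.87 (SE; 95% interval -1.13 to 2.34; adjusted p = 0.774). The interval reaches far in both directions.

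Within the cluster nearly all reads were miR-451a. It held 96.6 to 99.1% of the cluster's reads in db/db and 94.98 to 98.7% in WT libraries. There were 39.3 reads of miR-451a for each read of miR-144 (both arms) over all db/db libraries, from 200 reads of miR-144, and 32.5 in WT libraries, from 171. Single libraries ran from 28.4 (db/db library 6) to 105.5 (db/db library 1, from 2 reads of miR-144) in db/db, and from 18.9 to 74.2 in WT. Ligation and amplification differ between sequences, so this ratio of reads is not a ratio of molecules.

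Of the reads of miR-144, the 3p arm made up 23.0% over all db/db libraries (46 of 200 reads; exact Clopper-Pearson 95% interval 17.4 to 29.5%) and 17.5% in WT libraries (30 of 171 reads; 12.2 to 24.1%). The intervals overlap. They treat reads as independent and leave out the spread between libraries, where the share ran from 11.1 to 37.8% in db/db libraries 2 to 6 and from 5.56 to 44.0% in WT libraries. In db/db library 1 the only 2 reads of miR-144 were of the 3p arm.

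miR-451a and miR-144-5p moved together across db/db libraries. On the log2(RPM + 1) scale Pearson's r was 0.98 over the 6 db/db libraries (exact permutation test over 720 pairings, two-sided, p = 0.00556; adjusted over the 8 within-genotype tests 0.0444) and -0.48 over the 6 WT libraries (exact permutation p = 0.286; adjusted 0.458). Over all 12 libraries r was 0.83 (permutation p = 0.00449; adjusted over 4 relations 0.0180) and Spearman's rho 0.34 (permutation p = 0.277; adjusted 0.404). The relation over both genotypes rests on the 2 libraries at the ends: without db/db libraries 1 and 6, r was -0.03 over the other 10, 6 of them WT (permutation p = 0.930). That leaves 4 db/db libraries, too few for a correlation. Among them libraries 2 and 3 were higher than 4 and 5 in both miRNAs, and also in miR-486a-5p, described below. Over both genotypes r was 0.56 without db/db library 1 alone (adjusted permutation p = 0.286) and 0.79 without db/db library 6 alone (0.194). WT libraries 4 to 6, which were higher in miR-451a than WT libraries 1 to 3, lay at 19.3 to 34.3 RPM in miR-144-5p, against 22.1 to 42.4 RPM in WT libraries 1 to 3.

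The other 3 relations did not pass after adjustment, over all libraries or within a genotype. miR-451a with miR-144-3p had r = 0.45 and rho = 0.36 over 12 libraries (permutation p = 0.144 and 0.257; adjusted 0.257 and 0.404), with r = 0.87 within db/db (exact permutation p = 0.0361; adjusted 0.144) and -0.50 within WT (exact permutation p = 0.267). Without db/db libraries 1 and 6 it had r = 0.15 (permutation p = 0.683). The arms of miR-144 had r = 0.41 and rho = 0.31 with each other (permutation p = 0.193 and 0.332; adjusted 0.257 and 0.404), 0.81 within db/db (exact permutation p = 0.0694; adjusted 0.185) and -0.20 within WT (exact permutation p = 0.658). Without WT library 4 and db/db library 2, the farthest in miR-144-3p, that r was 0.52 (permutation p = 0.123). In sparse counts such values say little, since many libraries differ in miR-144-3p by a few reads.

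**Figure D4:**
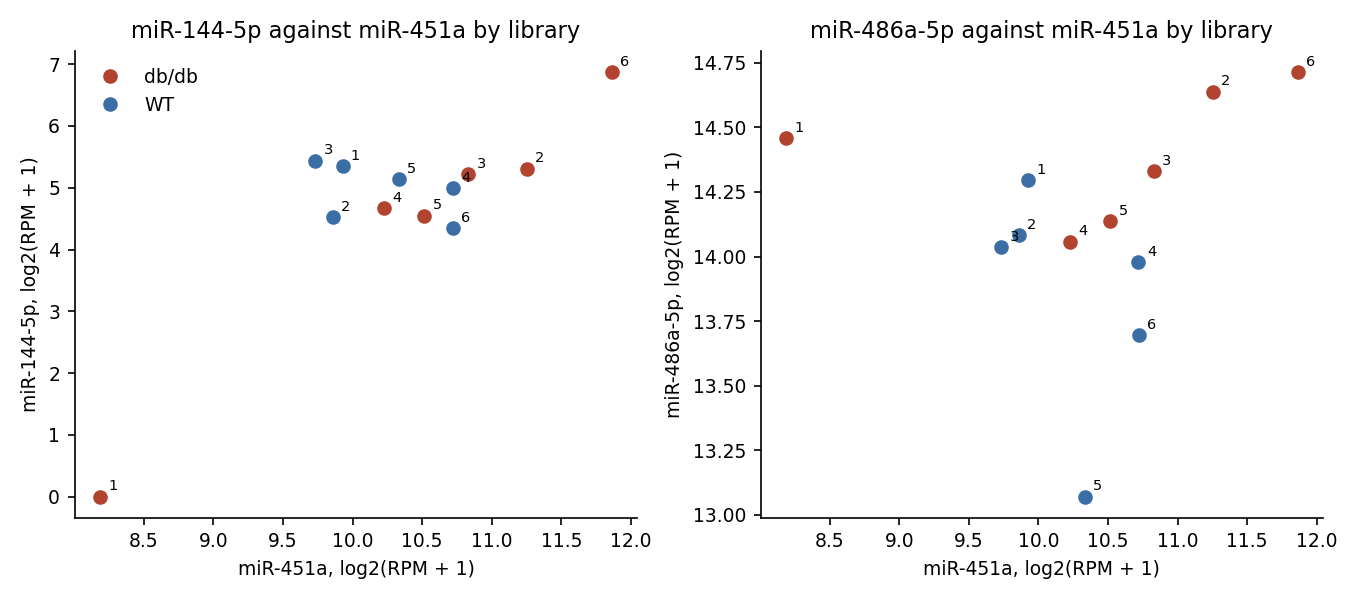
miR-144-5p (left) and miR-486a-5p (right) against miR-451a, all as log2(RPM + 1), each point 1 library with its number, db/db in red and WT in blue. db/db library 1 is lowest in miR-451a and miR-144-5p (0 RPM) but not in miR-486a-5p (22511 RPM).

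Over all 12 libraries miR-486a-5p, the other abundant miRNA of red cells, had no clear relation with miR-451a. It is made from an intron of Ank1, the gene of the red cell membrane protein ankyrin, and is also a miRNA of muscle. It lay at 17055, 21550 and 26878 RPM in the lowest, median and highest db/db library, and at 8605, 16484 and 20124 RPM in the lowest, median and highest WT library. db/db library 1, lowest of all in miR-451a, had 22511 RPM and only db/db libraries 2 and 6 were higher. The db/db libraries 2 to 6 stood in the same order in both miRNAs, with 6 highest, then 2, 3, 5 and 4. WT library 5 was lowest in miR-486a-5p while its miR-451a, 1288 RPM, was above the WT median. Over 12 libraries r between the 2 was 0.12 and rho 0.27 (permutation p = 0.676 and 0.404; adjusted 0.676 and 0.404). Within db/db r was 0.32 (exact permutation p = 0.583) and within WT -0.43 (exact permutation p = 0.436). Without db/db libraries 1 and 6 r was 0.24 (permutation p = 0.522). Without db/db library 1 alone it was 0.47 over both genotypes (permutation p = 0.143, adjusted 0.286). As a percentage of miR-486a-5p, miR-451a ran from 1.29 to 13.8% in db/db and from 4.84 to 15.0% in WT libraries.

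The 4 arms of miR-486a and miR-486b had positive log2 fold changes, with a median of 0.53, against -0.04 for all 646 rows tested, and limma called 0 of 4. At an unadjusted p under 0.05 there were 3, where all rows had 8.98%, among them miR-486a-5p (0.53 ± 0.14, SE; limma adjusted p = 0.0869). The row of miR-486b-5p was almost a copy of it, at 22209 ± 4014 RPM in db/db and 15673 ± 4074 RPM in WT libraries (SD, n = 6 each). Since Mir486a and Mir486b face each other at 1 locus, the table may count some reads in both rows. miR-486a-3p had 249 ± 25.4 RPM in db/db and 175 ± 45.7 RPM in WT libraries (SD, n = 6 each; limma adjusted p = 0.504). miR-486b-3p, the scarcest of the 4, had 42.0 ± 13.7 RPM in db/db and 39.9 ± 16.2 RPM in WT libraries (SD, n = 6 each).

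A second list held 14 miRNAs that are abundant in human red cells or reticulocytes. All were in the table and 13 were tested; miR-96-5p had a mean under 1 RPM. Of the 13, 6 had positive and 7 negative log2 fold changes, with a median of -0.02, and limma called 0; 1, the abundant miR-92a-3p, had an unadjusted p under 0.05, where all rows had 8.98% (0.51 ± 0.15, SE; adjusted p = 0.109). miR-16-5p, which has many sources besides red cells, stood at 3635 ± 571 RPM in db/db and 4328 ± 698 RPM in WT libraries (SD, n = 6 each; -0.25 ± 0.14, SE; limma adjusted p = 0.717). In db/db library 1 the summed level of this list was 13676 RPM, close to the db/db median of 13904 RPM. Most members of this list are made in other cells too.

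Markers of other cells were set beside miR-451a in the same libraries. The 8 leukocyte miRNAs summed to 3584, 5263 and 7222 RPM in the lowest, median and highest db/db library and to 4143, 4796 and 6043 RPM in the lowest, median and highest WT library; none was at 0 throughout. db/db library 6 was highest in this sum, and db/db library 1 had 4818 RPM. Most of the sum was miR-150-5p, with 6326 RPM in db/db library 6 and 3648 RPM in db/db library 1. Of these 8, 3 had positive and 5 negative log2 fold changes (median -0.42), limma called 0 and 2 had an unadjusted p under 0.05, against 8.98% of all rows. The myeloid miR-223-3p lay at 175 to 289 RPM in db/db and 306 to 478 RPM in WT libraries (-0.72 ± 0.22, SE; limma adjusted p = 0.109). The part of other blood cells in the level of miR-451a was not tested.

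Of the 5 cardiomyocyte miRNAs the sum was 338731 to 440054 RPM in db/db and 367382 to 421300 RPM in WT libraries. db/db library 6, highest in miR-451a, had the lowest sum, and db/db library 1 had 418201 RPM. limma called 0 of 5, with 1 at an unadjusted p under 0.05 and 4 of 5 values negative (median -0.25). All rows had a median of -0.04, with 8.98% at an unadjusted p under 0.05. The 3 endothelial miRNAs summed to 16719 to 26239 RPM in db/db, with db/db library 1 the lowest of all, and to 20027 to 30425 RPM in WT libraries (1 positive and 2 negative log2 fold changes, median -0.11; limma called 0, with 1 at an unadjusted p under 0.05, against 8.98% of all rows). The 5 fibroblast and smooth muscle miRNAs summed to 24559 to 39198 RPM in db/db and 33897 to 47321 RPM in WT libraries (2 positive and 3 negative log2 fold changes, median -0.33; limma called 0). Of these 5, 4 had an unadjusted p under 0.05, against 8.98% of all rows: miR-143-3p, miR-145a-5p and miR-199a-5p with negative values, and miR-214-3p with a positive one, 0.45 ± 0.22 (SE; limma adjusted p = 0.543). Single rows made up most of each sum: miR-133a-3p averaged 332510 RPM, miR-126a-3p 19921 RPM and miR-143-3p 25457 RPM over all libraries. The part of these cell types in the values of miR-451a was not tested.

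A ratio of miR-451a to miR-23a-3p, a miRNA little present in red cells, is used in human plasma to grade haemolysis. Here its log2 value lay at -6.14, -3.82 and -2.50 in the lowest, median and highest db/db library and at -4.76, -4.42 and -4.02 in the lowest, median and highest WT library. miR-23a-3p itself varied little within each genotype, at 18361 to 24530 RPM in db/db and 21746 to 28816 RPM in WT libraries. Of the 6 db/db libraries, 4 lay below the lowest WT library in miR-23a-3p. Its log2 fold change in limma was -0.23 ± 0.12 (SE, adjusted p = 0.575). The mean log2 ratio was -3.90 in db/db and -4.40 in WT libraries. In db/db libraries the SD of the log2 ratio was 1.28, close to the 1.26 of miR-451a alone. In WT libraries it was 0.30, below the 0.44 of miR-451a alone. There miR-23a-3p rose with miR-451a (Pearson's r = 0.91 on the log2(RPM + 1) scale, not tested). Against miR-133a-3p the log2 ratio of miR-451a ran from -10.32 to -6.31 in db/db and from -8.57 to -7.51 in WT libraries. Both ratios keep db/db library 1 lowest and db/db library 6 highest of all 12.

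Among 303 other rows averaging 10 RPM or more, the 5 most like miR-451a over the 12 libraries were miR-350-5p, miR-144-5p, miR-17-3p, miR-27b-3p and miR-674-3p. Their Pearson's r on the log2(RPM + 1) scale were 0.90, 0.83, 0.72, 0.72 and 0.62, with Spearman's rho of 0.74, 0.34, 0.50, 0.66 and 0.43. The median r of all 303 rows was 0.02. miR-350-5p, a sparse row, had 1.38 RPM (1 read) in db/db library 1, 41.2 RPM in db/db library 6 and 8.74 to 16.3 RPM in WT libraries. miR-27b-3p, an abundant miRNA of heart and vessels, had 8215 RPM in db/db library 1, 11489 RPM in db/db library 6 and 8823 to 11714 RPM in WT libraries. Without db/db library 1 the r of these 5 were 0.78, 0.56, 0.41, 0.51 and 0.57. The most unlike rows were miR-450b-3p (r = -0.69), miR-107-3p (-0.67) and miR-99b-3p (-0.67). The rows share their library total and were picked as extremes, so these r are a description with no test.

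The relation of the seed relative miR-101a-3p with miR-144-3p across libraries was not tested. miR-101a-3p was far more abundant, at 930.3, 1200.0 and 2503 RPM in the lowest, median and highest db/db library. The lowest, median and highest WT library had 1102, 1322 and 1691 RPM of miR-101a-3p. Its highest db/db library was number 5 and its lowest number 6, the library with the most miR-451a. limma gave a log2 fold change of 0.03 ± 0.18 (SE; adjusted p = 0.965). miR-101b-3p had -0.09 ± 0.22 (SE; limma adjusted p = 0.887).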

How the data were processed

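Small RNA libraries of 6 db/db and 6 WT samples of cardiac mitochondria were read from 1 table. Per the labels' protocols, adapters were ligated to both ends of total RNA, followed by reverse transcription, PCR and gel purification. The authors deposited the values as TPM, but every library adds up to 1000000 in steps of 1 read, so they were treated as RPM with no length term. The submitters' processing notes name GRCm39. For the aligner, annotation and counting, no details stand in the labels or headers. Whole reads were recovered for 100% of values within 0.01 of a read. No pair of libraries had alike counts (lowest chi-square per degree of freedom 21.6).

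limma 3.58.1 (R 4.3.3, abundance trend, pseudocount 1 RPM, filter of a mean of 1 RPM) compared db/db with WT, with Benjamini-Hochberg adjustment over all rows and a threshold of 0.05. edgeR 4.0.16 (TMM) and DESeq2 1.42.0 on recovered reads were alternatives, beside other pseudocounts, filters, scalings, covariates and left-out libraries. Correlations used 100000 permutations. Members, lists and tests were chosen with earlier results of these data known. Named rows were the 3 members, fixed list members, and by rule the 5 rows most like and 3 most unlike miR-451a; other values were chosen after being seen. Sequences are from RefSeq; structures are from RNAfold 2.7.2. Coordinates are not given, since the builds differ. Python 3.11.15 with scipy 1.17.1 ran the rest.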

Additional observations from a re-analysis of the deposited data

Results flagged for a closer look

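Of 46 groups of 6 values searched for 1 library far from the rest, 6 stood out. For independent, normally distributed groups the rule would flag about 1 in 20, or 2.3. Some of these groups share reads or rest on few reads, so the count of 6 was not tested against 2.3. miR-144-5p was 116 RPM in db/db library 6, with 38.7 RPM the next among db/db libraries, a gap of 0.667 of the range. The 3p share of miR-144 reads was 100% in db/db library 1 (2 reads), while the next was 37.8%, a gap of 0.700. In WT library 2 it was 44.0% (11 of 25 reads) and at most 18.8% in the other WT libraries, a gap of 0.657. Reads of miR-451a per read of miR-144 were 105.5 in db/db library 1, with 50.5 next, a gap of 0.713. Outside the cluster, miR-133a-3p was 367506 RPM in WT library 1, with 324643 RPM next (0.700), and db/db library 5 had 1382046 recovered reads, with 773784 next (0.628). miR-451a itself was not among them: its values in db/db libraries 1 and 6 lie at both ends of the range.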

How the results depend on the processing

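Leaving out db/db libraries 1 and 6 together, and edgeR without db/db library 1, were chosen after seeing the data. Against 1 row called by limma (miR-22-3p), the count was 0 without a filter, at a filter of 10 RPM, at either other pseudocount (0.1 and 10 RPM), without a trend, without WT 4 and db/db 6, or without db/db 1 and 6. It was 2 after median-of-ratios scaling, 3 with edgeR, 13 with DESeq2, 10 with libraries 1 to 3 against 4 to 6 as a factor in limma and 9 in edgeR. With 1 library left out it ranged from 0 to 7. The replicate block gave 9 calls in limma and 11 in edgeR, none of them a member; miR-451a was then 0.26 and 0.35 (adjusted p = 0.696 and 0.199). The labels do not say that numbers pair the samples, and same-numbered libraries did not deviate together (correlations -0.05 to 0.12; 1 of 6 db/db libraries correlated best with its own number).

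The log2 fold change of miR-451a passed in edgeR with that factor (0.60) and in edgeR without db/db 1 (0.73). With 1 library left out it ranged from -0.013 to 0.72. That of miR-144-5p turned positive in edgeR (0.30), DESeq2 (0.35), edgeR with the factor (0.22) and edgeR without db/db 1 (0.52), and ranged from -1.01 to 0.36 with 1 library left out; only leaving out db/db 1 turned it. That of miR-144-3p stayed positive, without a call, in the 16 alternatives and 12 left-out fits run (0.23 to 0.91); it has no value with a filter of 10 RPM. The relation of miR-451a with miR-144-5p lost its call without WT 4 and db/db 6 (r = 0.79) and ranged from 0.56 to 0.89 with 1 library left out. That with miR-486a-5p was -0.11 without WT 4 and db/db 6 and ranged from -0.12 to 0.47. Causes were not tested, beyond the left-out libraries themselves. Depth limits miR-144-3p (76 reads in all) and miR-144-5p (295 reads) most.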
